A study of Mus musculus with 8 samples.

Results

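The genes described here encode 10 proteins of the secondary (specific) and tertiary (gelatinase) granules of neutrophils: Ltf, Camp, Lcn2, Ngp, Chil3, Mmp8, Mmp9, Cd177, Pglyrp1 and Olfm4. They were taken by name, with every probe set annotated to each gene, which gave 11 of the 45037 probe sets and 10 of the 18193 genes measured. Mmp9 had 2 probe sets and each of the 9 other genes had 1. A further probe set, 1425451_s_at, is annotated to both Chil3 and its close paralogue Chil4 and is given separately.

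The cells were sorted from mouse bone marrow by FACS on Cd11b, the integrin alpha subunit that pairs with Itgb2 on granulocytes and monocytes, and RNA of each of 8 samples was hybridised to an Affymetrix array. All mice were 8 weeks old, of a mixed FVB and C57BL6 background, and received 5 injections of 250 µg of pIpC, an RNA mimic that induces interferon, with the last injection 24 h before they were killed. The 4 control samples have the genotype E2F1-/-2+/+3f/f, so E2F1 is null, E2F2 intact and E2F3 floxed without Cre. The 4 experimental samples have the genotype Mxcre;E2F1-/-2-/-3f/f, so E2F1 and E2F2 are null and floxed E2F3 is exposed to Cre from the interferon-responsive Mx promoter, which is active in many cell types. Both groups lack E2F1 and both received pIpC, and Cre is present in experimental samples only, so Cre itself and the E2F genotype cannot be told apart. The labels do not say whether each sample is a separate animal, so the spread behind each p-value is that among arrays and may be partly technical.

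Secondary and tertiary granules are made after the azurophil granules, from the myelocyte stage on, when neutrophil precursors complete their last divisions. Their proteins bind iron and siderophores, kill microbes and digest the matrix, and in the mouse their transcription depends on the factor C/EBP epsilon. Mature neutrophils store these proteins, and marrow granulocyte precursors are among the cells with the most mRNA for them. The E2F factors targeted here drive the cell cycle of the dividing precursors.

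The 250 bases before the annotated start were available for 9 of the 10 genes (RefSeq, GRCm38.p6). Those of Ltf, Camp, Lcn2 and Ngp are shown because their probe sets lay at the top of the array's range, and that of Olfm4 because its difference was the largest of the 11. The sequences are chr9:111019042-111019291 (plus strand) for Ltf, chr9:109849457-109849706 (minus strand) for Camp, chr2:32387740-32387989 (minus strand) for Lcn2, chr9:110419558-110419807 (plus strand) for Ngp and chr14:80000052-80000301 (plus strand) for Olfm4. They are written 5′ to 3′ along each gene, and capitals mark matches to motifs searched on both strands: a C/EBP-type motif (TTNNGNAA), a PU.1-type motif (GAGGAA) and 3 E2F-type motifs (TTTCCCGC, TTTGGCGC and TTTCGCGC).
Ltf: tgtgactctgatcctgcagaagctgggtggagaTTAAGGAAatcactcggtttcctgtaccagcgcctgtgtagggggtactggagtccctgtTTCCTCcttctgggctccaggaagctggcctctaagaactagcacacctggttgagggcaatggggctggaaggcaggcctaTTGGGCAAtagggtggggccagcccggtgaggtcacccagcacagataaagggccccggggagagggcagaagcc
Camp: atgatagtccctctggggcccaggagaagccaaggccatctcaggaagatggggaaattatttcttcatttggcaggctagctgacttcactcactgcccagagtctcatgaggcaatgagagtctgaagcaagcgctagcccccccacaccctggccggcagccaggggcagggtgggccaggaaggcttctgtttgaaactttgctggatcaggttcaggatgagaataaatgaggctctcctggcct
Lcn2: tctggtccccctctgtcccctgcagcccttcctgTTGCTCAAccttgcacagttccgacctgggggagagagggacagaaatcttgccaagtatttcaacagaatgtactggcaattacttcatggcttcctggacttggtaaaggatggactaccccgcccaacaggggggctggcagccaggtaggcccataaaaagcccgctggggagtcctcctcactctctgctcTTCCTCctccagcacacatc
Ngp: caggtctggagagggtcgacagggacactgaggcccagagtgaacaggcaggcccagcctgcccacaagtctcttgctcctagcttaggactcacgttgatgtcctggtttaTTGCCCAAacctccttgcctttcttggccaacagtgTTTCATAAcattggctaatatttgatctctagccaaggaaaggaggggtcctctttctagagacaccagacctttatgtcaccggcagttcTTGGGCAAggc
Olfm4: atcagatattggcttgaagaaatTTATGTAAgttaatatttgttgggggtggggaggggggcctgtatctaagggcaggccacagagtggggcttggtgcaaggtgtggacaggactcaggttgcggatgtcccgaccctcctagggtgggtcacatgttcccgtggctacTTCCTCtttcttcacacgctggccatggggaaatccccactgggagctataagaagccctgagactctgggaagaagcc
A C/EBP-type match was present in 7 of the 9 promoters (Ltf, Lcn2, Ngp, Chil3, Mmp8, Cd177 and Olfm4), against 36.8% of all 32851 mouse promoters of this length. A PU.1-type match was present in 6 of the 9 (Ltf, Lcn2, Mmp8, Cd177, Pglyrp1 and Olfm4), against 23.3% of all. No E2F-type match was present in any of the 9, against 1.53% of all. None of the marked matches in the 5 printed sequences overlap. These are matches of letters only and say nothing of binding, and the sequence printed for Camp holds none of them.

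Across the arrays the medians of the tested probe sets lay between 5.01 and 5.04 on the log2 scale. E2f2 was lower in experimental samples at 1 of its 2 probe sets (1455790_at, -0.66 ± 0.13 SE, limma adjusted p = 0.0351) and did not pass at the other (1436434_at, -0.55 ± 0.16, adjusted p = 0.107). Both still read well above the array medians in experimental arrays, at 7.06 to 7.47 and 9.08 to 9.53. Where their probes lie relative to the deleted part of the gene is not given in these sources, so they check the genotype labels only in part. Itgam, which encodes the sorted antigen Cd11b, averaged 11.58 ± 0.07 in the control and 11.54 ± 0.27 in the experimental group (SD, n = 4). The style of the codes in the labels splits replicates 1 and 2 from replicates 3 and 4 in both groups, and the arrays deviated together by style, so differences are also given within each style.

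None of the 10 granule genes passed the test between the groups. Of the 11 probe sets, 0 were higher and 0 lower at limma adjusted p under 0.05, where 2.58% of all probe sets were called (1.03% higher and 1.55% lower). An unadjusted p under 0.05 was reached by 1 of the 11, Olfm4, and by 17.0% of all (9.56% in the direction of Olfm4). The arrays of the groups did not overlap in 2 of the 11, both lower (6.15% of all), and in 0 higher (4.64% of all). Among the 393 probe sets with a mean of 12 or more, to which 10 of the 11 belong, 1.78% were called, 44.3% had a lower mean and 7.38% were lower without overlap. All 11 group means were lower in the experimental samples, by 0.03 to 0.84 on the log2 scale with a median difference of -0.13. Of all probe sets 49.4% had a lower mean, and the median of all was 0.003. Within replicates 3 and 4 all 11 were lower (53.6% of all probe sets) with a median of -0.24. Within replicates 1 and 2 only 6 of the 11 were lower (48.7% of all) with a median of -0.05. The difference between the 2 styles was not tested. In bulk samples such as these, fewer cells that carry an mRNA and less of it per cell cannot be told apart.

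**Figure D1:**
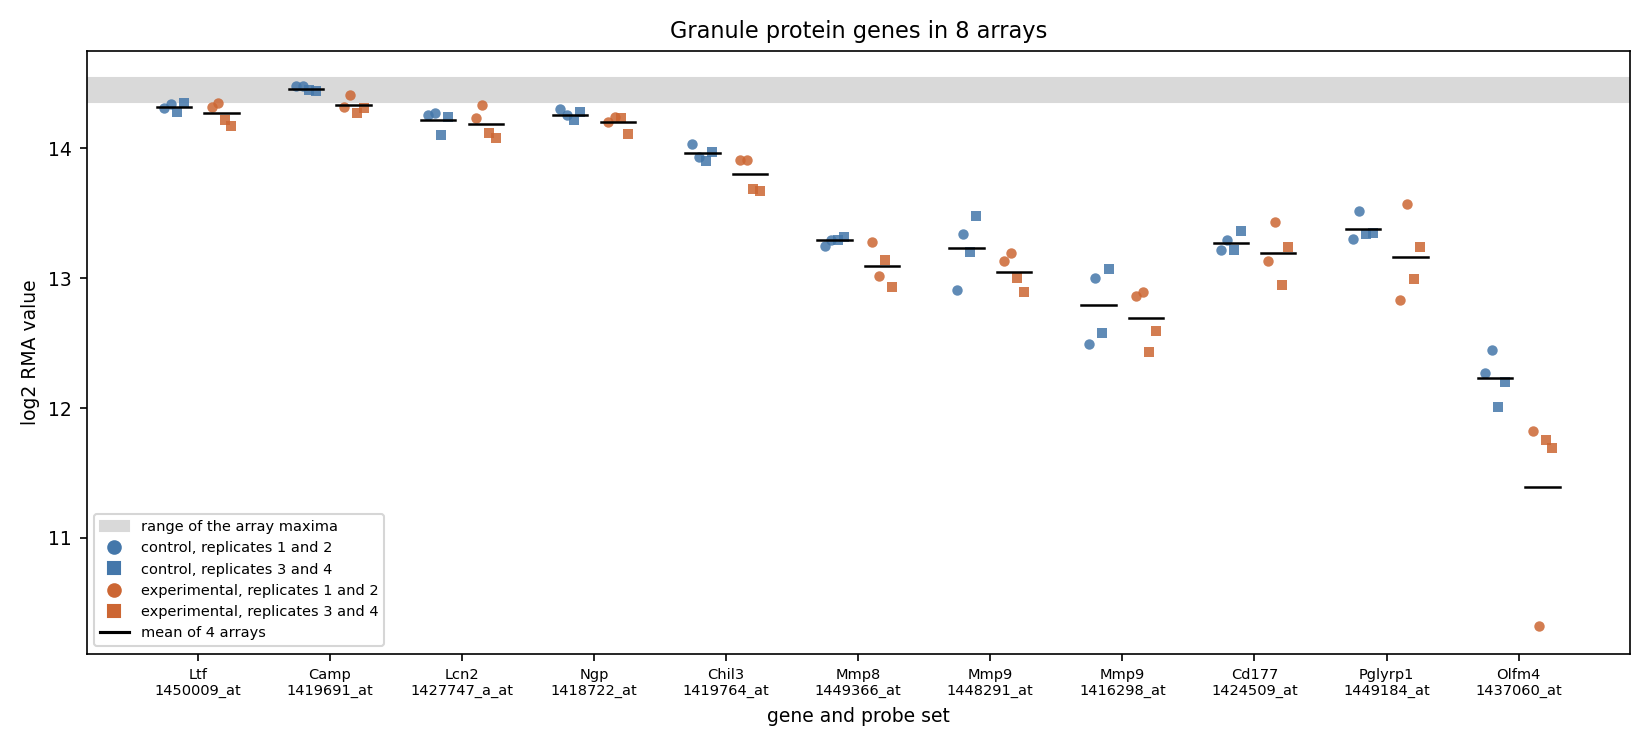
The log2 RMA value of each of the 11 probe sets (x axis) is plotted for 4 control and 4 experimental arrays, with circles for replicates 1 and 2, squares for replicates 3 and 4, black lines for the means of 4 arrays and a grey band from 14.36 to 14.54 for the range of the array maxima. Ltf, Camp, Lcn2 and Ngp sit in or just under the band, and Olfm4 alone has an array far from the others, at 10.32.

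The probe sets of 4 genes lay near the top of the array's range, defined as a mean within 0.5 of the mean array maximum of 14.47, that is at 13.97 or above. Each array's highest value lay between 14.36 and 14.54. It came from S100a9 in 6 arrays, from Camp in control replicate 3, and from a probe set of the haemoglobin alpha genes in experimental replicate 1. Across all genes only 11 probe sets lay in this range, and 4 of them were Camp, Ltf, Ngp and Lcn2. None of the 4 genes has a second probe set, so there is no dimmer measurement to set beside the bright one.

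Camp encodes the precursor of the cathelicidin antimicrobial peptide. It read 14.48, 14.48, 14.45 and 14.44 in control replicates 1 to 4 and 14.32, 14.41, 14.27 and 14.31 in experimental replicates 1 to 4. Every experimental array was below every control array, without overlap. The difference was -0.13 ± 0.08 (SE, n = 4 per group; 95% interval -0.31 to 0.04; limma adjusted p = 0.431), which is not given as a percentage because the values lay at the array maximum. The two-sided exact permutation p was 0.0286, the smallest that 4 against 4 arrays allow (0.265 adjusted over all probe sets). Replicates 1 and 2 gave -0.12 and replicates 3 and 4 gave -0.15. The mean gap of Camp to the array's own maximum was 0.03 in controls and 0.11 in experimental samples. The largest gap, 0.22, was in experimental replicate 1, where a haemoglobin probe set gave the maximum. The mean gaps of Ltf, Ngp and Lcn2 were 0.18, 0.23 and 0.28 in controls and 0.17, 0.24 and 0.25 in experimental samples.

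Ltf encodes lactoferrin, the iron-binding glycoprotein that marks secondary granules. It read 14.31, 14.34, 14.28 and 14.35 in controls and 14.32, 14.35, 14.22 and 14.17 in experimental samples. The groups overlapped: experimental replicates 1 and 2 lay among the controls, and replicates 3 and 4 lay below all of them. The difference was -0.06 ± 0.08 (SE, n = 4 per group, 95% interval -0.24 to 0.13, adjusted p = 0.792 with limma).

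Ngp encodes neutrophilic granule protein, a relative of the cathelicidin precursor. Its probe set read 14.30, 14.26, 14.22 and 14.28 in controls and 14.20, 14.24, 14.23 and 14.11 in experimental samples. The groups overlapped, with experimental replicate 4 the lowest. The difference was -0.06 ± 0.08 (SE, n = 4 per group, 95% interval -0.24 to 0.11, limma adjusted p = 0.742).

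Lcn2 encodes the lipocalin that captures bacterial siderophores. It read 14.26, 14.27, 14.10 and 14.24 in controls and 14.23, 14.33, 14.12 and 14.08 in experimental samples. The highest array was experimental replicate 2 and the lowest experimental replicate 4, so the groups overlapped throughout. The difference was -0.03 ± 0.09 (SE, n = 4 per group, 95% interval -0.24 to 0.18, limma adjusted p = 0.917), the smallest of the 11, and it was 0.01 within replicates 1 and 2 and without experimental replicate 4.

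Values near the top of the range had less spread than those in the rest of the scale. The 11 probe sets there had a median residual SD of 0.063 and differences of -0.13 to 0.26, and 0 of them (0.0%) passed the test. They include Ltf, Camp, Lcn2 and Ngp, and the -0.13 is that of Camp. The 1867 probe sets with a mean of 10 to 12 had a median residual SD of 0.18, differences of -1.71 to 3.23 and 4.55% called. A range widens with the number of probe sets, so these ranges are not like for like. The 11 are also too few to compare the shares called. Between 12 and 13 the SD was 0.14 with 1.92% called, and from 13 to 13.97 it was 0.10 with 1.64% called. The differences of Ltf, Camp, Lcn2 and Ngp were read from a part of the scale in which none of the 11 probe sets, themselves included, differed by more than 0.26. Whether their mRNA differed by more than the arrays show was not tested.

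**Figure D2:**
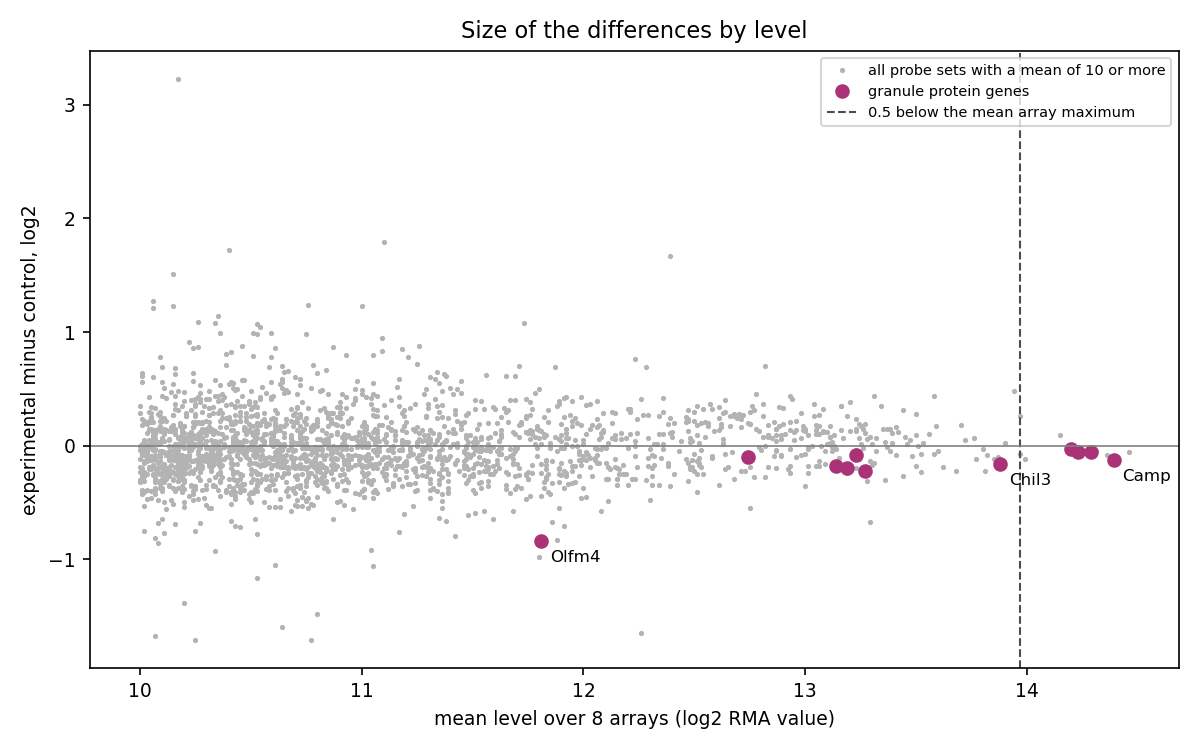
The difference of experimental minus control (log2, y axis) is plotted against the mean level over 8 arrays (log2 RMA value, x axis) for all probe sets with a mean of 10 or more (grey) and for the 11 granule probe sets (purple), with a dashed line at 13.97. The grey points narrow toward the right, where probe sets are fewer, to -0.13 to 0.26 beyond the line, and Olfm4 lies at -0.84 at a mean of 11.81.

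The other 7 probe sets, of 6 genes, lay 0.59 to 2.65 below the mean array maximum. Their median difference was -0.18, against -0.06 for the 4 near the top, and none passed the test.

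Chil3 encodes Ym1, a secreted chitinase-like protein of mouse neutrophils and some macrophages. It read 14.03, 13.93, 13.90 and 13.97 in controls and 13.91, 13.91, 13.69 and 13.67 in experimental samples. Experimental replicates 3 and 4 were lowest, and replicates 1 and 2 lay just above the lowest control. The difference was -0.16 ± 0.09 (SE, n = 4 per group, 95% interval -0.37 to 0.05, limma adjusted p = 0.434). This probe set lay 0.59 below the mean array maximum, just outside the range counted as near the top. Probe set 1425451_s_at, shared with Chil4, averaged 13.92 ± 0.08 in controls and 13.70 ± 0.11 in the experimental group (SD, n = 4). Its difference was -0.22 ± 0.09 (SE, 95% interval -0.43 to -0.01, limma unadjusted p = 0.0382 and adjusted p = 0.258). It is not counted among the 11. Signals of the paralogues cannot be separated there.

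Pglyrp1 encodes a peptidoglycan recognition protein that binds bacterial cell walls. It read 13.30, 13.52, 13.34 and 13.35 in controls and 12.83, 13.57, 12.99 and 13.24 in experimental samples. The experimental arrays held both the lowest of all 8 values (replicate 1) and the highest (replicate 2). The difference was -0.22 ± 0.15 (SE, n = 4 per group, 95% interval -0.56 to 0.12, limma adjusted p = 0.504). Without experimental replicate 2 it was -0.36, with adjusted p = 0.137.

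The metalloproteinases came next. Mmp8 encodes neutrophil collagenase, kept in secondary granules. It read 13.25, 13.29, 13.29 and 13.32 in controls and 13.28, 13.02, 13.14 and 12.93 in experimental samples. The controls lay close together, and 3 of the 4 experimental arrays lay below all of them, with replicate 1 among them. The difference was -0.20 ± 0.10 (SE, n = 4 per group, 95% interval -0.41 to 0.02, limma adjusted p = 0.338), the lowest adjusted p after Olfm4, or 87.2% of the control level.

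Mmp9 encodes gelatinase B, the enzyme that names the tertiary granules, and was the one gene with 2 probe sets. The brighter, 1448291_at, read 12.91, 13.34, 13.20 and 13.48 in controls and 13.13, 13.19, 13 and 12.89 in experimental samples. The dimmer, 1416298_at, read 12.49, 13, 12.58 and 13.07 in controls and 12.86, 12.89, 12.43 and 12.59 in experimental samples. In both, control replicates 4 and 2 were the highest arrays and control replicate 1 was among the 2 lowest. The differences were -0.18 ± 0.13 (95% interval -0.48 to 0.12, limma adjusted p = 0.545) and -0.10 ± 0.16 (SE, n = 4 per group, 95% interval -0.46 to 0.27, adjusted p = 0.820). Within replicates 1 and 2 both probe sets were higher in the experimental samples (0.04 and 0.13), and within replicates 3 and 4 both were lower (-0.40 and -0.32).

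Cd177 encodes a surface glycoprotein that is held in secondary granule membranes and, in human neutrophils, presents proteinase 3 and binds PECAM1. It read 13.22, 13.29, 13.22 and 13.36 in controls and 13.13, 13.43, 12.95 and 13.24 in experimental samples. The groups overlapped, with both the highest and the lowest array experimental. The difference was -0.08 ± 0.11 (SE, n = 4 per group, 95% interval -0.33 to 0.17, limma adjusted p = 0.761).

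Olfm4 encodes olfactomedin 4, a glycoprotein that is stored in the secondary granules of a subset of neutrophils. It read 12.27, 12.45, 12.01 and 12.20 in controls and 11.82, 10.32, 11.75 and 11.69 in experimental samples. Every experimental array lay below every control, by at least 0.19, and experimental replicate 2 stood 1.37 below the next array of its group. The difference was -0.84 ± 0.30 (SE, n = 4 per group; 95% interval -1.51 to -0.17), or 55.9% of the control level, with an unadjusted p of 0.0196 and a limma adjusted p of 0.188, which did not pass. Its exact permutation p was 0.0286 (0.265 adjusted over all probe sets), the value of every probe set whose groups do not overlap.

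The size of the Olfm4 difference rested on that 1 array. Without experimental replicate 2 the other 3 read 11.75 ± 0.07 (SD, n = 3) and the difference was -0.48 ± 0.12 (SE, limma adjusted p = 0.0602), or 71.7% of the control level. Replicates 1 and 2, which include it, gave -1.29, and replicates 3 and 4 gave -0.39. In the same array Pglyrp1 and Cd177 were the highest of all 8 arrays, and Lcn2 as well.

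**Figure D3:**
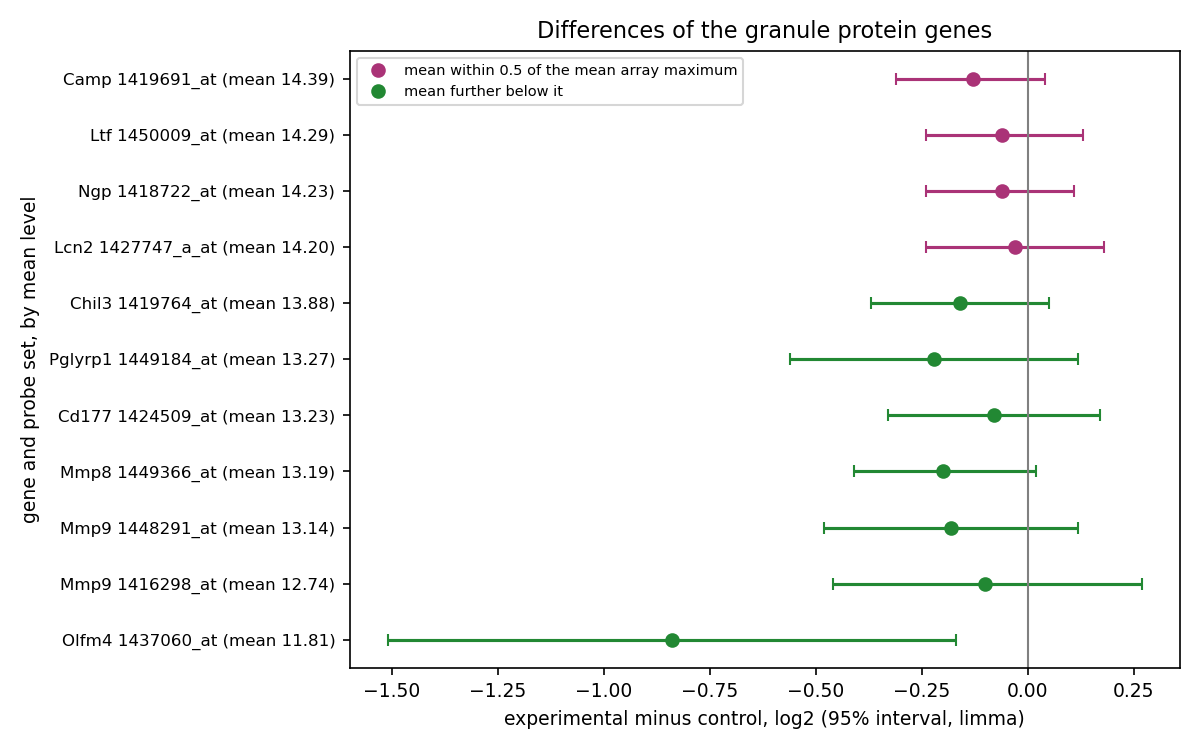
Each point is the difference of experimental minus control (log2, x axis) of 1 probe set with its 95% interval from the limma fit, ordered by mean level, with the 4 probe sets near the array maximum in purple and the other 7 in green. The interval of Olfm4, -1.51 to -0.17, is the only one that does not include 0, and no probe set passed after adjustment.

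Single arrays recurred at the extremes of these genes. Experimental replicate 4 was the lowest array in 6 of the 11 probe sets and replicate 3 in 3, and both lay below the probe set's mean in 10 of 11. Control replicates 2 and 4 lay above it in all 11, and control replicate 4 was the highest array in 4. Experimental replicate 2 was the highest array in 3 probe sets and below the mean in 2, Mmp8 and Olfm4. The residual SD ran from 0.044 for Camp to 0.26 for the dimmer probe set of Mmp9, and was 0.52 for Olfm4.

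**Figure D4:**
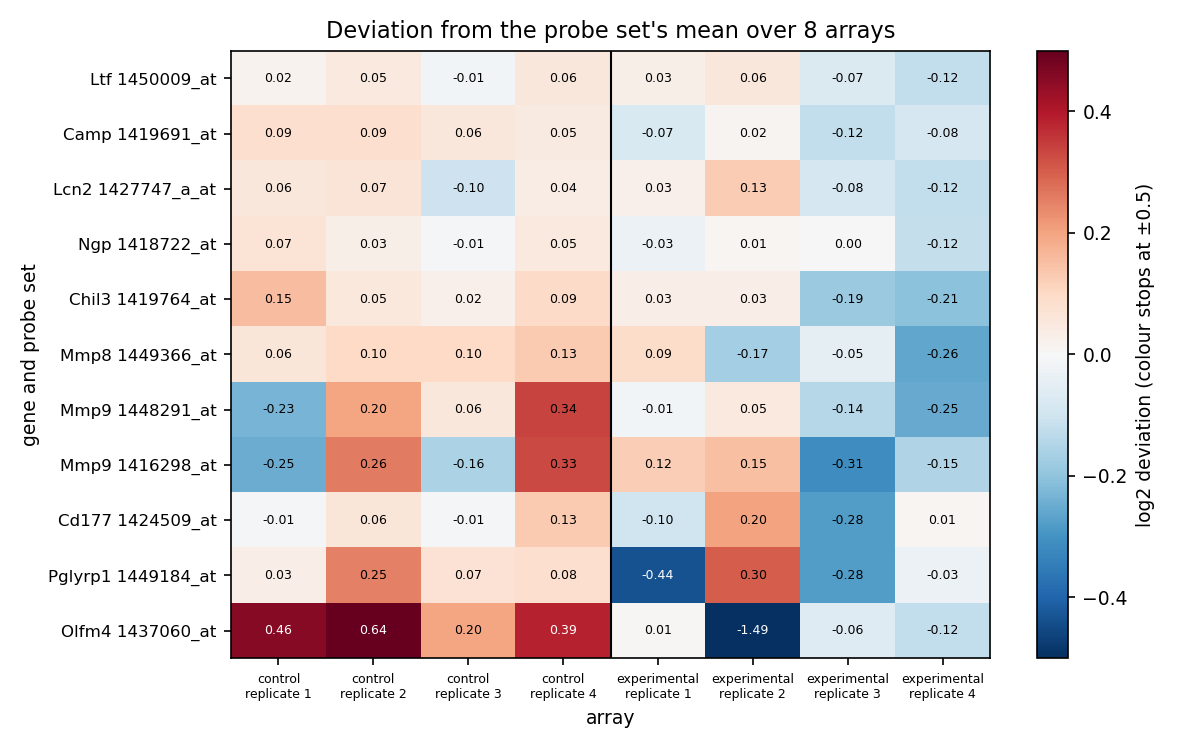
Each cell gives the log2 deviation of 1 array (x axis) from the mean of that probe set over 8 arrays (y axis), with red above and blue below and the colour stopping at 0.5 either way. The columns of experimental replicates 3 and 4 are below the mean in 10 of 11 rows each. The lowest cell is that of Olfm4 in experimental replicate 2, where the log2 value was 10.32.

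**Figure D5:**
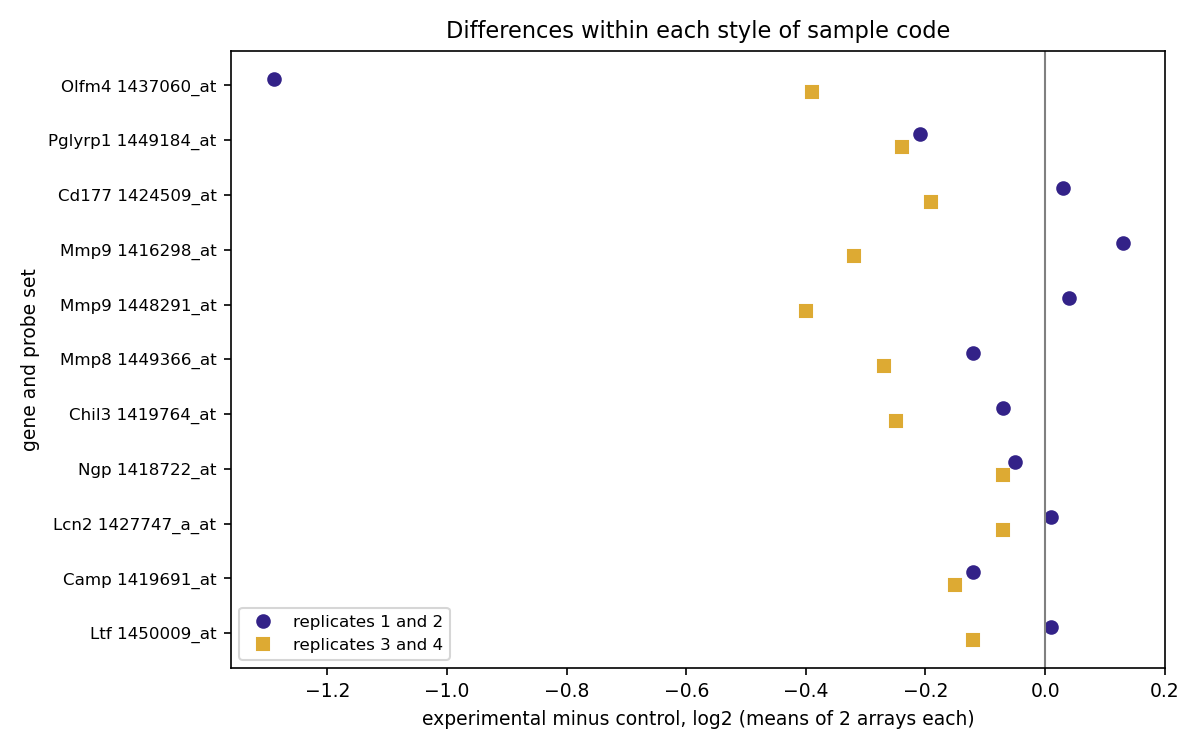
The difference of experimental minus control (log2, x axis) is drawn for each probe set (y axis) as the means of 2 against 2 arrays within replicates 1 and 2 (circles) and within replicates 3 and 4 (squares). All 11 squares lie below 0, from -0.07 to -0.40, and 5 of the 11 circles lie above 0, at 0.01 for Ltf and Lcn2, 0.03 for Cd177 and 0.04 and 0.13 for Mmp9.

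A sign of RNA integrity, the log2 ratio between 3′ and 5′ probe sets for beta-actin (Actb), also separated the groups, at 0.27 to 0.32 in controls and 0.34 to 0.54 in experimental samples. It was highest in experimental replicate 4 (0.54) and replicate 3 (0.46), the arrays in which most granule probe sets were lowest. Experimental replicate 1 came next (0.43), but only 5 of its 11 granule probe sets were below their mean, with a median deviation of 0.01. The same ratio of Gapdh overlapped (-0.14 to -0.09 and -0.16 to 0.03). Its part in the values of the granule genes was not tested.

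Further granule genes were read from a second list. Of 27 measured genes of a list of further secondary, tertiary and secretory granule proteins, 0 rose and 0 fell with limma (6 at an unadjusted p under 0.05), against 1.53% and 1.95% of all genes, and the median difference was -0.08. Of all probe sets 17.0% reached an unadjusted p under 0.05. That share, here and for the lists below, counts probe sets and not genes by their brightest probe set. The share of genes is not given here, so the list counts have no like figure beside them. The mean was lower for 19 of the 27, and for 47.1% of all genes. Their differences ran from -0.78 for Orm1, an acute-phase glycoprotein that secondary granules also hold, to 0.69 for Ceacam10. Lyz2, which encodes lysozyme and also lay near the top of the range, averaged 14.34 ± 0.03 in the control and 14.29 ± 0.03 in the experimental group (SD, n = 4). Anxa1, an annexin stored in tertiary granules in human neutrophils, read 13.86 ± 0.10 and 13.78 ± 0.23. With replicate number as a block, Stom (0.57, adjusted p = 0.0384) and Ceacam10 (0.69, 0.0276) were higher and Orm1 (-0.78, 0.00972) and Snap23 (-0.62, 0.0321), a SNARE of exocytosis, were lower. These 4 were named after their values were seen.

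Transcription factors of granule genes had 0 of 15 measured genes past the threshold in either direction, with a median difference of -0.20. An unadjusted p under 0.05 was reached by 5 of the 15, against 17.0% of all probe sets. Cebpd, which encodes C/EBP delta, read 11.76, 12.08, 11.97 and 12.09 in controls and 11.51, 11.70, 11.29 and 11.50 in experimental samples. The groups did not overlap, and the difference was -0.47 ± 0.12 (SE, n = 4 per group, limma adjusted p = 0.0686). It passed with the replicate block (adjusted p = 0.0478) and without experimental replicate 2 (-0.54, adjusted p = 0.0417). Runx1, a regulator of granulocyte genes, also passed with the block (-0.81, adjusted p = 0.0147; 0.121 without it), and Cbfb, which encodes its partner, differed by 0.03 ± 0.10 (adjusted p = 0.927). Gfi1, required for neutrophil differentiation, differed by 0.19 ± 0.14 (adjusted p = 0.533). Runx1 and Gfi1 were named after their values were seen, and Cebpe was not analysed here.

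Receptors, partners and inhibitors of the granule proteins had 0 of 17 past the threshold, with a median of -0.09. At an unadjusted p under 0.05 there were 7 of the 17, against 17.0% of all probe sets. Tyrobp, the signalling adaptor that pairs with Trem1, a receptor bound by Pglyrp1, averaged 13.51 ± 0.09 in the control and 13.21 ± 0.09 in the experimental group (SD, n = 4). Its arrays did not overlap, and the difference was -0.30 ± 0.09 (SE, limma adjusted p = 0.125). Itgb2, the partner of Cd11b, read 13.13 ± 0.05 and 12.89 ± 0.13 (difference -0.24 ± 0.09, adjusted p = 0.219). Pecam1, the ligand of CD177 in human, differed by 0.56 ± 0.14 (adjusted p = 0.0745) and passed with the replicate block (adjusted p = 0.0397). Timp2, an inhibitor of metalloproteinases, differed by -0.44 ± 0.16 (adjusted p = 0.191). Pecam1 and Timp2 were named after their values were seen.

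Some markers of other stages and cell types differed between the groups. Of all genes 1.53% rose and 1.95% fell in the same test. Of 11 measured B cell genes 6 fell (3 without control replicate 2), with a median of -1.31. Their summed levels were 10.77 to 11.74 in controls and 9.75 to 10.31 in experimental samples. Among the 6, Ms4a1, which encodes CD20, fell by 2.82 on the log2 scale (limma adjusted p = 0.0116). Of 9 azurophil granule and promyelocyte genes 1 rose (Ms4a3, 0.83 ± 0.16 SE, n = 4 per group, limma adjusted p = 0.0298) and none of the 9 had a lower mean, with a median of 0.70. That count was 4 with the replicate block and 0 to 4 with 1 array left out: 0 on omitting control replicate 1, 2 or 4, or replicate 1 or 4 of the experimental group, 3 without control replicate 3 and 4 without experimental replicate 2. Of 13 mature neutrophil genes 4 fell (Csf3r, Il1b, Ccl6 and Clec4d), with a median of -0.09 and a lower mean in 11 of the 13. Only Stfa2l1 and Padi4 had a higher mean, and both were higher in every experimental array without passing. Stfa2l1, a stefin A-like gene, was higher by 1.24 ± 0.30 (SE, n = 4 per group, limma adjusted p = 0.0649, and 0.0343 with the replicate block). Padi4, the peptidylarginine deiminase of neutrophils, was higher by 0.40 ± 0.13 (limma adjusted p = 0.140). Stfa2l1 and Padi4 were named after their values were seen.

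Of 9 dendritic cell genes 3 fell (1 without control replicate 2), and of 10 eosinophil, basophil and mast cell genes 2 rose (Epx and Siglecf; 1 without control replicate 1, 2, 3 or 4 or experimental replicate 1). In that list 6 of the 10 means were lower, with a median of -0.18. Ms4a2, a subunit of the IgE receptor, was lower in every experimental array (-0.77, limma adjusted p = 0.0558), and Gata2 passed as lower with the replicate block (-0.55, adjusted p = 0.0494, and 0.0983 without it). Of 14 monocyte and macrophage genes, 8 T and NK cell genes and 8 erythroid genes 0 passed with limma. An unadjusted p under 0.05 was reached by 3, 3 and 2 of them, and by 17.0% of all probe sets. The mean was lower for 11 of the 14, 4 of the 8 and 1 of the 8, with medians of -0.23, 0.02 and 0.3. With the replicate block Vcan of the monocyte list (1.22, adjusted p = 0.0262, and 0.369 without it) and Alas2 of the erythroid list (1.10, adjusted p = 0.0342, and 0.216 without it) passed as higher. The block moved the B cell count from 6 to 7 and the dendritic cell count from 3 to 4. Ms4a2, Gata2, Vcan and Alas2 were named after their values were seen. Csf1r, the monocyte growth factor receptor gene, differed by -0.64 ± 0.22 (SE, n = 4 per group, adjusted p = 0.178). The summed level of the erythroid list lay between 12.50 and 12.83 in controls and 12.35 and 13.89 in experimental samples. That sum holds almost no globin signal, since Hbb-b1 had no probe set of its own and Hba-a1 averaged 3.84. The bright haemoglobin probe sets are annotated to several genes and were not in the list. The part of these cell types in the values of the 10 granule genes was not tested.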

How the data were processed

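The deposited table holds log2 values per probe set of 8 arrays, made by the authors with RMA, per the submitters' processing notes, which give no version. The sources used here do not say if the 8 arrays went through RMA as 1 set. Of 45101 probe sets, 64 Affymetrix controls were left out. In the platform annotation 34945 of the rest had 1 gene symbol, 932 had several and 9160 had none, and 34741 matched RefSeq (GRCm38.p6) by gene identifier, with 0 symbols changed.

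Differences are experimental minus control, fitted over all 45037 probe sets by lmFit and eBayes of limma 3.58.1 (R 4.3.3) with a single term for group. P-values were adjusted by Benjamini-Hochberg, with a threshold of 0.05. Errors of differences are moderated SEs, and intervals are 95%. The two-sided exact permutation test used all 70 splits of the 8 arrays. In lists, each gene is read by its brightest probe set, and summed levels are the log2 of summed linear values. Brightness also depends on the probes, so levels are not compared between genes. The fit was tested on simulated data with changes placed in probe sets above the median level. It recovered 22.4% of 1.5-fold changes, 71.6% of 2-fold changes and 93.9% of 4-fold changes. The number of arrays limits the precision.

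Every probe set of the 10 genes is named. From each further granule list the text names up to 4 genes past the threshold or, with none, the 2 brightest. Cebpe was always to be named, with Itgam, Ms4a1 and Csf1r as markers. The genes and lists were chosen with earlier results of these data known.

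Deviations from the group means correlated at 0.20 to 0.26 across probe sets between the control and the experimental array of a number, in each of the 4 pairs. Replicate number was used as a block on the assumption that it pairs samples. The correlation was 0.14 to 0.26 for a different number with codes of the same style, and -0.27 to -0.13 between styles. The ranges for the same and for a different number of the same style overlap. The correlations therefore separate the code styles but do not show that number pairs samples within a style. Calls made only with the replicate block rest on that assumption.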

Additional observations from a re-analysis of the deposited data

Results flagged for a closer look

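In Olfm4 (1437060_at), experimental replicate 2 read 10.32 while the other 3 experimental arrays read 11.69 to 11.82, so that the gap to the nearest array was 0.912 of the whole range of the group, above the 95% critical value of Dixon's ratio for 4 samples. Of 42 groups of 4 arrays examined in this way for the genes named here, this was the 1 found, where chance gives about 1 in 20.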

How the results depend on the processing

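Over 19 alternatives the count of granule probe sets past the threshold was 0 throughout, and 200 of 209 recomputed differences stayed below 0 after rounding. The 9 at or above 0 or rounding to it belonged to Ltf, Lcn2, Mmp9 and Cd177, 5 of them within replicates 1 and 2. The lowest adjusted p was 0.0602, for Olfm4 without experimental replicate 2, and 0.137 for any other gene. The median of the 7 probe sets below the top of the range was -0.18, lay between -0.21 and -0.12 with 1 array left out (-0.12 without experimental replicate 4) and was -0.07 within replicates 1 and 2. With a limit of 1 in place of 0.5 below the maximum, 5 probe sets counted as near the top.

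With replicate number as a block, which treats arrays of the same number as pairs, 2277 of all probe sets passed in place of 1162. Of the genes in the 3 further granule lists, 3 were then counted higher and 4 lower in place of 0. With code style as a block the numbers were 2582, 4 and 4. Beyond those given beside their results, the block changed no call of a gene named here. Replicates 1 and 2 alone gave 130 probe sets and replicates 3 and 4 alone gave 418. It lay between 395 and 1744 with 1 array left out: 466, 395, 738 and 421 without control replicates 1 to 4, and 629, 1744 and 586 without experimental replicates 1, 2 and 4. In the further lists quantile normalization called 1 gene higher, the most variable probe set 1 lower (Vamp2), and leaving out 1 array 0 higher and 0 to 2 lower (Cebpd and Tlr4, both without experimental replicate 2). The cause of these changes was not tested. Of 336 recomputed marker counts, 49 moved by over 1.5 times. Ltf, Camp, Lcn2 and Ngp were read near the array maximum, and whether their mRNA differed by more than the arrays show was not tested.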
